A study of Mus musculus with 25 samples.

Results

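RNA bound to GFP-tagged ribosomes of the mouse hypothalamus was compared between mice fed a high-fat diet (HFD) for 3 days and mice fed a control diet (CD). The libraries were chosen by their labels alone, as the precipitated fraction (IP) of this diet experiment, and number 8 of the 25 in the series, with 4 CD pools and 4 HFD pools. All mice carried the genotype Slco1c1Cre+/-;ROSA26lSlL10aGFP+/-, in which a tamoxifen-inducible Cre under the Slco1c1 promoter switches on ribosomal protein L10a fused to GFP. They were 12 weeks old, had received tamoxifen 3 weeks before the diet began, and each pool held hypothalami of 4 mice, 2 of them male and 2 female. A library of the whole lysate (INPUT) was made for each pool number as well, and these 8 libraries were kept out of the fit and used only as a background beside it. Since a library is a pool, the spread given here is that between pools and not between single mice.

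In bacTRAP, an antibody against GFP pulls down the tagged ribosomes together with the transcripts on them, so that the bound RNA of one genetically chosen cell population is read out of a mixed tissue. Slco1c1 encodes a transporter of thyroid hormone found at the blood-brain barrier, and the labels give the cell type as endothelial cell. The hypothalamus senses glucose, fat and hormones from the blood, and the endothelial cells, the astrocytes whose endfeet wrap the vessels and the tanycytes of the third ventricle all stand between the blood and its neurons. Diets rich in fat are known to draw glial cells of the hypothalamus into a reactive state, in which astrocytes make more of their filament proteins.

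Markers of astrocytes, endothelial cells, tanycytes and the choroid plexus were all enriched in IP over the lysate. Levels are given in CPM, that is counts divided by library size, scaled by the TMM factor and multiplied by 1e6, and compare a gene between pools and not with other genes, because they are not divided by transcript length. The summed level of 15 astrocyte markers was 56008 to 65738 CPM in the CD pools and 52560 to 57561 CPM in the HFD pools, against 5689 to 7663 CPM in INPUT of either diet. That of 19 pan-endothelial markers was 117 to 188 and 142 to 166 CPM in IP and 28.5 to 42.4 CPM in INPUT. The tanycyte and ependymal markers summed to 153 to 215 CPM in IP and 47.5 to 57.6 CPM in INPUT, and those of the choroid plexus to 125 to 206 and 41.5 to 50.5 CPM. The astrocyte and endothelial sums overlapped between the diets in IP (2-sided exact permutation test of the means, p = 0.171 and 0.6). Slco1c1 itself stood at 101, 119, 89 and 119 CPM in the CD pools and at 97.7, 113, 83.9 and 81.3 CPM in the HFD pools. What follows therefore describes the bound RNA of all cells in the precipitate, and in a bulk sample fewer cells of a type and less RNA per cell cannot be told apart.

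Total counts were 28.5 to 41.2 M (1e6 counts) in the CD pools and 27.9 to 39.3 M in the HFD pools (exact p = 0.771), with 20655 to 21891 genes detected and 7.79 to 10.45 percent of the counts in ribosomal RNA. On the first principal component, which held 30.5 percent of the variance, the CD pools lay from -19.1 (CD pool 4) to 0.9 and the HFD pools from 3.4 to 9.5. A pair of measures, 1 of transcript length and 1 of sex-linked genes, shifted between the diets. The level of long transcripts, relative to short ones, was lower in the HFD pools: Spearman's rho between a gene's level in a pool, centred on its mean, and transcript length was 0.07, -0.08, 0.11 and 0.32 in the CD pools and -0.19, -0.29, 0.03 and -0.12 in the HFD pools over 12114 protein-coding genes (exact p = 0.0571). The summed level of 5 sex-linked genes, of which 4 are on the Y chromosome, was 64.3 to 79 CPM on CD and 48.9 to 61.7 CPM on HFD without overlap (exact p = 0.0286, the smallest that 4 against 4 can give), and Ddx3y, a Y-linked helicase, stood at 32.7 to 39.6 and 27.1 to 29.4 CPM. The X-linked member of the list had the opposite sign (log2 fold change 1.05, SE 0.65). In INPUT the sums of the list overlapped, at 65.6 to 77.8 CPM on CD and 63.2 to 70.6 CPM on HFD. The fit was therefore repeated with transcript length and GC content as an offset, and with the Y-linked level as a covariate, and these values stand beside the results they move.

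Differences between the diets were small. Of 9765 genes with a mean log2 CPM of at least 3, 7 had a log2 fold change of 1 or more in either direction, and the median size of the log2 fold change was 0.08, as large as the median standard error of 0.08. With the quasi-likelihood test of edgeR (Benjamini-Hochberg adjusted p under 0.05), 14 of 15858 tested genes passed, or 0.0883 percent. Of these 6 rose with HFD, 0.0378 percent of the genes tested, and 8 fell, 0.0504 percent. Before adjustment 1831 genes, 11.5 percent, had a p under 0.05, 6.24 percent upwards and 5.31 percent downwards. In 544 genes, 3.43 percent, all 4 HFD pools lay above all 4 CD pools, and in 420 genes, 2.65 percent, all 4 lay below. These shares are the background against which the counts within gene groups are to be read.

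S100a11 (ENSMUSG00000027907, chromosome 3, 93520488 to 93526287 in GRCm38), a small calcium-binding protein tied to the cytoskeleton and membranes, had the largest rise among the genes that passed, after the histone gene Hist1h2ap described below. It stood at 37.8, 52, 37.9 and 35.7 CPM in the CD pools and at 62.6, 77.8, 75.3 and 81.4 CPM in the HFD pools. Every HFD pool was above every CD pool, CD pool 2 being the highest of its group, and the log2 fold change was 0.86 ± 0.12 (SE, 95 percent interval 0.60 to 1.12, adjusted p = 0.0305). Of its 31-base words 48.9 percent also occur in pseudogenes, but S100a11 summed with them read 41.1 ± 7.47 CPM on CD and 74.7 ± 8.2 CPM on HFD (SD, n = 4 pools each).

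Upp1 (chromosome 11, 9118103 to 9136170), the uridine phosphorylase that releases uracil from uridine, shares none of its 31-base words with other genes. Its level was 8.44, 8.92, 8.11 and 9.04 CPM on CD and 11.9, 12.3, 12.3 and 15.4 CPM on HFD, a rise of 0.59 ± 0.10 on the log2 scale (adjusted p = 0.0321). The CD pools lay close together and the groups did not overlap. AW112010 (chromosome 19, 11047612 to 11055808), a transcript annotated without a known protein and induced in inflammation, read 12.5, 13.5, 10.8 and 10.6 CPM on CD and 16.3, 17.5, 17.4 and 17.4 CPM on HFD. Its log2 fold change was 0.53 ± 0.10 (adjusted p = 0.0331).

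Ighm (chromosome 12, 113418558 to 113422730), the constant part of the immunoglobulin M heavy chain and a B cell gene, rose from 9.9, 10, 10.6 and 12.7 CPM to 19.2, 15.9, 17.6 and 16.3 CPM (log2 fold change 0.68 ± 0.10, adjusted p = 0.0129). Most other B cell markers were near 0. Of 12 markers listed for B and plasma cells, Mzb1, Ms4a1, Ly6d and Cd79b were below 0.1 CPM in every IP pool, only 3 were tested, and the summed level of the list, 23.1 CPM on CD and 29.4 CPM on HFD in the mean, moved by no more than Ighm alone (10.8 and 17.3 CPM). The mean log2 CPM of the list was 1.94 to 2.15 on CD and 1.47 to 2.14 on HFD. The B cell transcription factor Pax5 had the opposite sign, with 0.432, 0.492, 0.439 and 0.542 CPM in the CD pools and 0.062, 0.401, 0.167 and 0.0743 CPM in the HFD pools (log2 fold change -1.50 ± 0.48, adjusted p = 0.227).

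The remaining pair that rose are core histone genes of the H2A family, whose copies are nearly identical. Hist2h2aa1 (chromosome 3, 96245497 to 96246082) read 7.81, 5.65, 7.6 and 6.23 CPM on CD and 10.8, 10.1, 11.9 and 15 CPM on HFD (log2 fold change 0.82 ± 0.14, adjusted p = 0.0311). Hist1h2ap (chromosome 13, 21833026 to 21833507) was listed at 0 counts in all 4 CD pools and at 18.4, 15.1, 19.6 and 24.2 counts in the HFD pools (adjusted p = 0.00289). Against a floor of 3 counts over the 4 CD pools together this is at least 24.2-fold higher. All of the 31-base words of Hist2h2aa1 (100 percent) and 93.4 percent of those of Hist1h2ap occur in other genes, so that the counting could move reads between copies. Summed with its copies Hist1h2ap stood at 45.3 ± 10.3 CPM on CD and 52.8 ± 8.51 CPM on HFD (SD, n = 4 pools each, exact permutation test p = 0.371), and the 20 replication-dependent H2A genes together stood at 78.1 ± 13.5 and 88 ± 7.15 CPM (exact permutation p = 0.286). The family as a whole thus did not part the diets, while CD pool 4 was the lowest of the 8 at 58.4 CPM.

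Of the 8 genes that fell, Agt (ENSMUSG00000031980, chromosome 8, 124556534 to 124569706) is described first and encodes angiotensinogen, the precursor of the angiotensin peptides, which in brain is made mainly by astrocytes. It stood at 275, 331, 342 and 343 CPM in the CD pools and at 232, 252, 184 and 221 CPM in the HFD pools, and fell by 0.54 ± 0.09 on the log2 scale in IP with an adjusted p of 0.0321. All HFD pools were below all CD pools, with HFD pool 3 the lowest. None of the other 4 tested genes of the renin-angiotensin system passed the test.

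Of the other genes that fell, 3 encode enzymes. Prodh (chromosome 16, 18060357 to 18090203), which opens the breakdown of proline in mitochondria, read 35.1, 36.7, 40.6 and 36.9 CPM on CD and 25.9, 28.1, 25 and 29.7 CPM on HFD and fell by 0.46 ± 0.08 (adjusted p = 0.0311). Cyp2d22 (chromosome 15, 82370527 to 82380260), a cytochrome P450, read 95.4, 126, 117 and 118 CPM on CD and 78.7, 91.3, 72.2 and 74.6 CPM on HFD and fell by 0.53 ± 0.09 (adjusted p = 0.0311). Entpd2 (chromosome 2, 25395874 to 25401321), an ectoenzyme that removes phosphate from extracellular ATP, read 41.9, 39.7, 40.9 and 43.7 CPM on CD and 32.6, 32.9, 25.2 and 30.5 CPM on HFD and fell by 0.45 ± 0.08 (adjusted p = 0.0347). In all 3 of these genes every HFD pool lay below every CD pool, in Cyp2d22 by a narrow gap between CD pool 1 and HFD pool 2. Entpd2 shares 27 percent of its 31-base words with Npdc1, which overlaps it on the same strand and stood at 25.6 ± 0.61 and 27 ± 2.62 CPM (SD, n = 4 pools each, exact permutation p = 0.4).

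Rbm3 (chromosome X, 8138975 to 8145880), an RNA-binding protein that cooling induces, read 127, 139, 154 and 113 CPM on CD and 92.5, 99.3, 92.7 and 102 CPM on HFD. It fell by 0.47 ± 0.08 (adjusted p = 0.0321), and the related Cirbp had the same sign without passing (-0.48 ± 0.11, adjusted p = 0.0994, all 4 HFD pools below). Rin2 (chromosome 2, 145675215 to 145887616), which acts on the small GTPase Rab5 in endocytosis, read 100, 109, 116 and 113 CPM on CD and 89.4, 86, 81.1 and 77.1 CPM on HFD and fell by 0.39 ± 0.07 (adjusted p = 0.0321). The last 2 are transcripts of no known function at low level. Gm16170 (chromosome 11, 48843648 to 48853493), annotated as antisense to Trim7, read 4.39, 4.52, 3.87 and 2.27 CPM on CD and 1.05, 1.13, 1.53 and 1.31 CPM on HFD (log2 fold change -1.58 ± 0.22, adjusted p = 0.00733), while Trim7 stood at 1.65 ± 0.237 and 1.36 ± 0.21 CPM (SD, n = 4 pools each, exact permutation p = 0.143). Whether the counting used strand was not given in the sources used here. Gm3005 (chromosome 14, 3428103 to 3594220) fell from 0.643 to 0.914 CPM to 0 to 0.217 CPM (-2.73 ± 0.50, adjusted p = 0.0347), but 98.4 percent of its 31-base words occur in other genes, and with them it summed to 27.2 ± 4.65 and 29 ± 3.96 CPM (SD, n = 4 pools each, exact permutation p = 0.571).

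**Figure D1:**
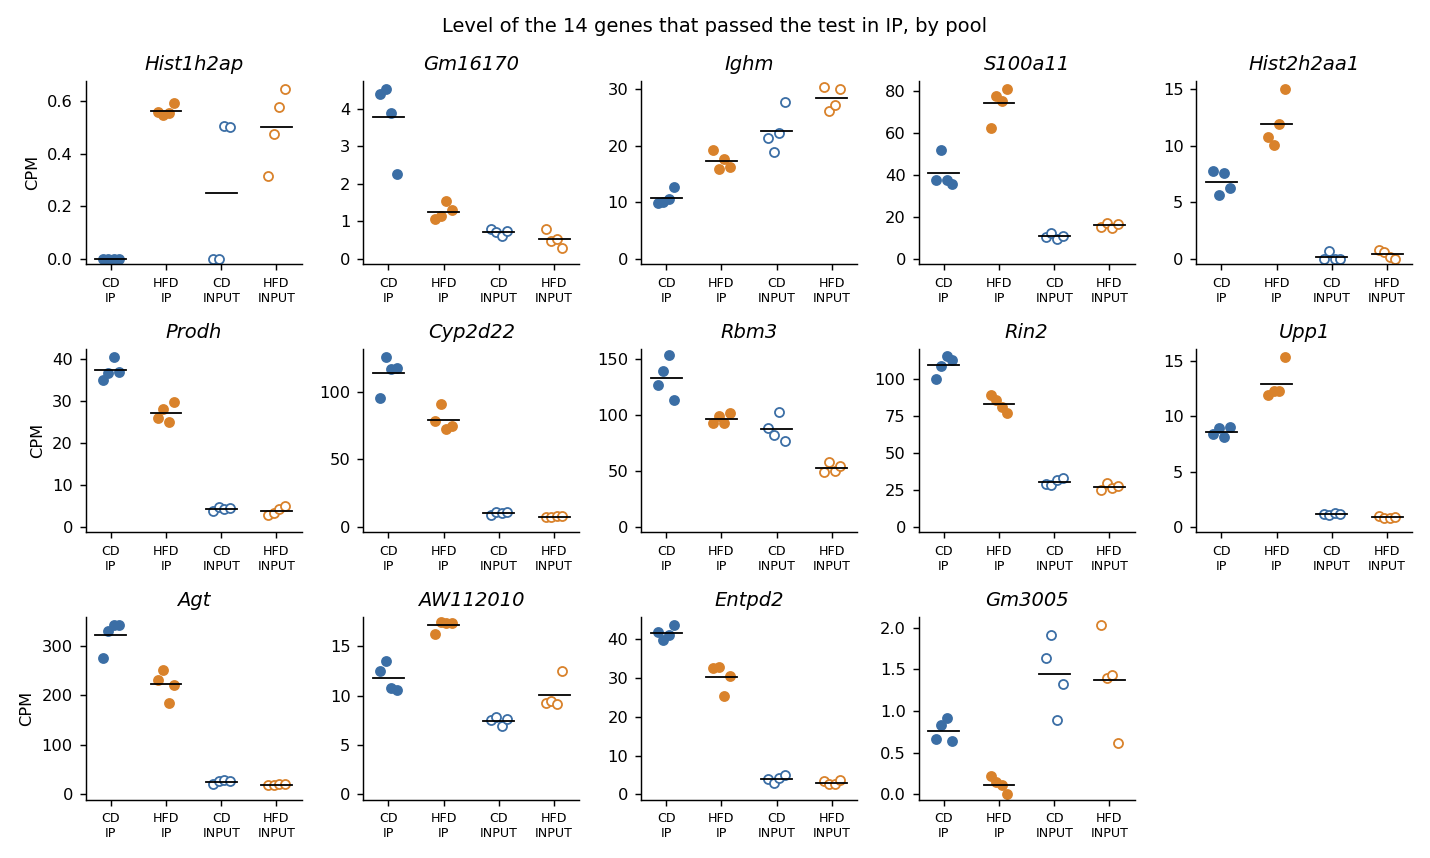
Level in CPM (vertical axes, linear) of the 14 genes that passed the test, one panel a gene, with 1 point a pool and a bar at the mean of 4 pools. Filled points are IP and open points INPUT, blue is CD and orange HFD. In each panel the filled groups do not overlap, and Upp1 is the gene whose INPUT means, 1.14 and 0.834 CPM, lie in the opposite order to its IP means.

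How many genes passed rested on single pools. The count was 33 without CD pool 1, 13 without CD pool 2, 8 without CD pool 3 and 5 without CD pool 4, and 6, 50, 9 and 8 without HFD pools 1, 2, 3 and 4. Of the 14 genes, 12, 6, 4 and 4 stayed called when CD pools 1 to 4 were left out in turn, and 3, 14, 3 and 5 when HFD pools 1 to 4 were. None of the 14 changed sign in any of the alternatives tried: the log2 fold change of S100a11 ranged from 0.66 to 0.99, that of Upp1 from 0.49 to 0.62, that of Agt from -0.69 to -0.46 and that of Rbm3 from -0.54 to -0.39. With the mean log2 CPM of the 4 Y-linked genes as a covariate, Hist1h2ap, Hist2h2aa1 and Cyp2d22 stayed called (3 of 14) among 29 genes. The 29 also held Ccnd1 (1.2, adjusted p = 0.00063), Srsf1 (0.56, 0.043), S100a4 and Slc2a1 (-0.62, 0.0371), all described below. Because the Y-linked genes were themselves lower in the HFD pools, this fit separates diet from Y-linked level only poorly. Its values here and below are to be read with that limit. With transcript length and GC content as an offset 12 genes passed, 11 of them among the 14, and Hist2h2aa1, Upp1 and AW112010 were lost with adjusted p of 0.0666, 0.073 and 0.13. The other tools gave 14 genes (limma-voom) and 200 genes (DESeq2).

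The same diet comparison in the whole lysate gives the background of the tissue. In INPUT 6 of 16879 genes passed, or 0.0355 percent: Vim, Rbm3, Ifitm2, S100a11, Cirbp and Tubb2b (Tubb2b was named for this count after its values were seen). S100a11 and Rbm3 were called in both fractions. S100a11 stood at 10.7 ± 1.22 and 15.9 ± 1.08 CPM in INPUT with a log2 fold change of 0.57 (adjusted p = 0.0235), and Rbm3 at 87.8 ± 11.4 and 52.7 ± 4.3 CPM with -0.74 (adjusted p = 0.00981; SD, n = 4 pools each, edgeR). IP and INPUT of a pool number are not independent, since in 7 of the 8 pools their deviations from the group means correlated by 0.188 to 0.46 across genes (-0.033 in HFD pool 1). In INPUT Agt had -0.38 (adjusted p = 0.111), Cyp2d22 -0.48 (0.101), Entpd2 -0.40 (0.605) and Prodh -0.15 (0.876).

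Upp1 had opposite signs in the fractions. Its log2 fold change was 0.59 in IP and -0.45 in INPUT (adjusted p = 0.669 there), a difference of 1.03 ± 0.19 with an unadjusted p of 1.17e-05 and an adjusted p of 0.206 in the interaction of diet and fraction fitted with edgeR. In that interaction 0 percent of 17592 genes passed and 755 had an unadjusted p under 0.05. With the pool as a block Upp1 had an adjusted p of 0.108 and 1 gene passed, Zfp969 (adjusted p = 0.0177, chosen after its values were seen), listed at 0 in all 4 CD pools of INPUT and at 0.251 to 0.806 CPM in the HFD pools, with 0 to 2.11 and 1.22 to 2.7 CPM in IP. Without the filter on low counts 1 gene passed, Gm16199 (adjusted p = 0.0366, chosen after its values were seen), at 0 to 0.246 CPM on CD and 0 on HFD in IP. Neither is among the 14 genes, and for none of the 14 did the diet effect pass as different between the fractions in the fit without the block.

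Beyond the genes that passed, the 12 of smallest p in each direction with parted groups and a mean log2 CPM of at least 3 are given as values (adjusted p from 0.0512 to 0.0802). Upwards these held a prolyl hydroxylase of collagen (P4ha3), a subunit of respiratory complex I (Ndufc1), an S100 protein (S100a6), a dynein light chain (Dynll1) and a receptor for sphingosine 1-phosphate (S1pr3). P4ha3 stood at 74.5, 82.4, 89.4 and 79.8 CPM on CD and 106, 109, 135 and 98.8 CPM on HFD (log2 fold change 0.46 ± 0.09). Genes of RNA handling were among them, with Tia1, a stress granule protein, at 14.3 ± 0.738 and 19 ± 1.57 CPM, the splicing factor Srsf1 at 88.2 ± 6.15 and 112 ± 10.4 CPM and Ccar1, a transcriptional coactivator, at 82.7 ± 8.93 and 111 ± 10.7 CPM (SD, n = 4 pools each). Eif2ak2, the interferon-induced kinase PKR that senses double-stranded RNA, stood at 138 ± 9.42 and 173 ± 14.1 CPM. The others were the ubiquitin ligase gene Cop1, Dap and Krcc1, with log2 fold changes of 0.29, 0.39 and 0.32.

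Downwards the 12 held large structural proteins, transporters and enzymes of lipid and glucose metabolism. Myh14, a non-muscle myosin heavy chain, stood at 29.8, 25.3, 33.3 and 37.2 CPM on CD and 19.8, 23.9, 21.1 and 21.2 CPM on HFD (-0.55 ± 0.10, adjusted p = 0.0512 with edgeR). Numa1, a nuclear and spindle protein, and Sptan1, a spectrin of the membrane skeleton, had -0.39 and -0.45. Slc27a1, a fatty acid transporter, stood at 170, 180, 212 and 191 CPM and 131, 156, 140 and 154 CPM (-0.38 ± 0.08), and Slc6a6, the taurine transporter, at 79.4, 70.7, 68 and 83.7 CPM and 60.9, 58.2, 61 and 57.7 CPM (-0.34 ± 0.07). Retsat, which saturates retinol, Pgm1, a phosphoglucomutase of glycogen metabolism, and Itih3, a hyaluronan-binding protein, had -0.46, -0.36 and -0.54. Klhdc7a, Wnk2, a kinase that acts on ion transport, and Fam214a had -0.43, -0.38 and -0.50, and Ddx3y is the Y-linked gene given above. With the length and GC offset none of the 24 reached an adjusted p under 0.05, the nearest being Ddx3y and Pgm1 at 0.0666 each, and Myh14 and Numa1, with transcripts of 6499 and 7180 bases, went to -0.41 and -0.28.

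**Figure D2:**
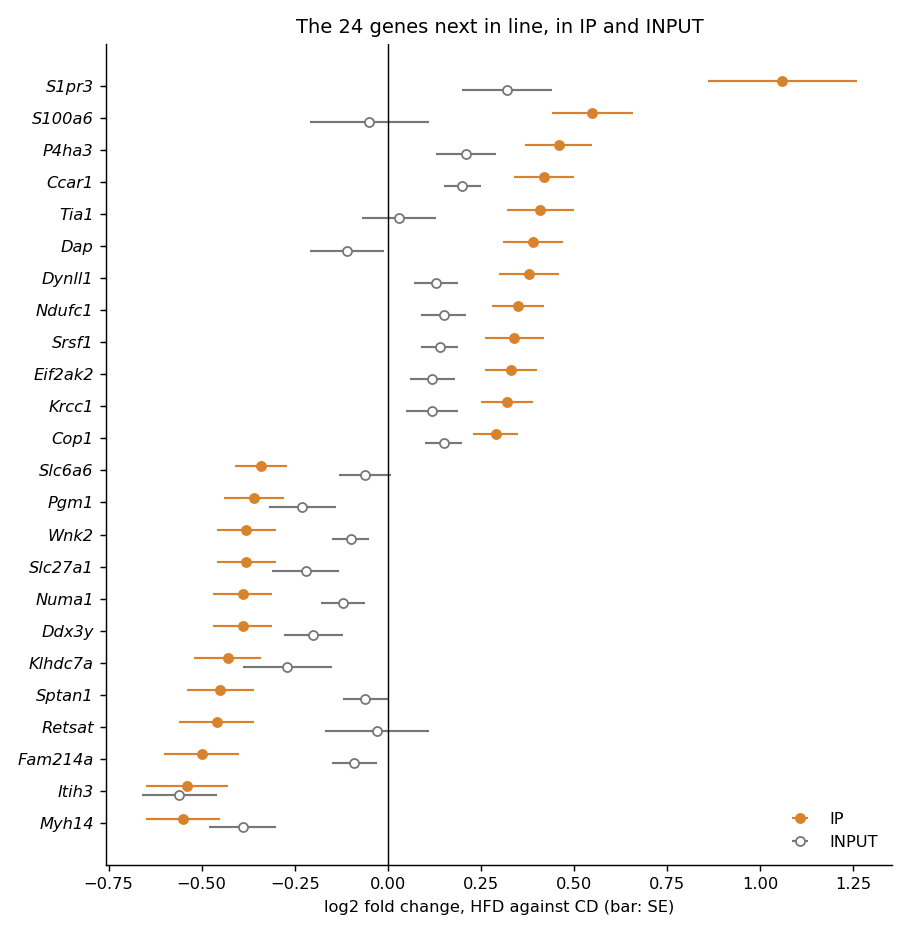
Log2 fold change of HFD against CD (horizontal axis, bar: SE) for the 24 genes next in line by p, in IP (orange, filled) and INPUT (grey, open). In IP the genes lie from -0.55 (Myh14) to 1.06 (S1pr3), and in INPUT most lie nearer to 0.

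Genes that mark reactive astrocytes leaned upwards. Of 28 genes listed, 25 were tested and 20 had a positive log2 fold change, with a median of 0.30 against 0.00 over all genes, where 50.3 percent were positive. All 4 HFD pools were above all CD pools for 7 of the 25 and below for 2, and 1 (S100a11) passed the test. Gfap, the filament protein by which astrocytes are stained, stood at 1346, 1434, 1145 and 1371 CPM on CD and 1749, 1442, 1820 and 1488 CPM on HFD (0.30 ± 0.09, adjusted p = 0.208), so that HFD pool 2 lay only just above CD pool 2. Vim, the filament protein vimentin (chosen after its values were seen), stood at 66.3, 68.8, 53.8 and 71.4 CPM and 114, 97.2, 94.8 and 152 CPM (0.82 ± 0.16, adjusted p = 0.122), and passed in INPUT (0.60, adjusted p = 0.0056, edgeR). The list's mean log2 CPM by pool was 2.99, 3.53, 3.20 and 3.36 with CD and 3.47, 3.63, 3.60 and 3.72 with HFD. CD pool 2 thus lay within the HFD range. The median was 0.29 with the length and GC offset, 0.21 with the Y-linked covariate and 0.12 in INPUT, where 17 were positive and 6 negative. Not all of the list moved this way: Fkbp5 and Amigo2 were the 2 genes with all HFD pools below (-0.44 and -0.50, Amigo2 chosen after its values were seen), and the acute-phase gene Lcn2 had -0.07 ± 0.74.

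The S100 genes, a family of small calcium-binding proteins that was looked at after its values were seen, were all shifted one way. Of 17 family members 9 were tested, and all 9 were positive with a median of 0.41. All HFD pools were above all CD pools in 5 of the 9. S100a11, S100a6 and S100a10 are also members of the reactive astrocyte list above, so the 2 groups are not separate. S100a4 (chromosome 3, 90603771 to 90606045, chosen after its values were seen), a protein of motile cells, stood at 4.42, 3.24, 3.73 and 4.2 CPM on CD and 11.4, 8.53, 7.49 and 16.8 CPM on HFD (1.51 ± 0.25, adjusted p = 0.0681). S100a6 stood at 29.7, 28.5, 25 and 26.2 CPM and 47.8, 34.8, 32.8 and 45.5 CPM (0.55 ± 0.11), and S100a10, which binds annexin, at 14.3, 15.3, 11.5 and 13.9 CPM and 20.1, 18.5, 17.3 and 17.3 CPM (0.41 ± 0.10). S100b, the member by which astrocytes are often stained, had 0.11 ± 0.08. Their transcripts are short, and with the length and GC offset the median of the 9 was 0.29. With the Y-linked covariate it was 0.19, and in INPUT 6 were positive and 2 negative with a median of 0.07.

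S1pr3 and Tagln showed differences of like size. S1pr3 stood at 6.05, 6.88, 4.86 and 6.3 CPM on CD and 7.72, 13.8, 12.5 and 16.3 CPM on HFD (1.06 ± 0.20, adjusted p = 0.0802). Tagln, a contractile protein of smooth muscle, stood at 0.665, 0.615, 0.548 and 0.779 CPM and 1.4, 2.73, 0.888 and 2.21 CPM (1.46 ± 0.32, adjusted p = 0.0802). The summed level of 12 pericyte and smooth muscle markers overlapped between the diets, being 21.3 to 28.5 CPM on CD and 21 to 38.7 CPM on HFD (exact p = 0.571). All 4 HFD pools lay above the CD pools for both genes, but the 4 values were spread widely.

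**Figure D3:**
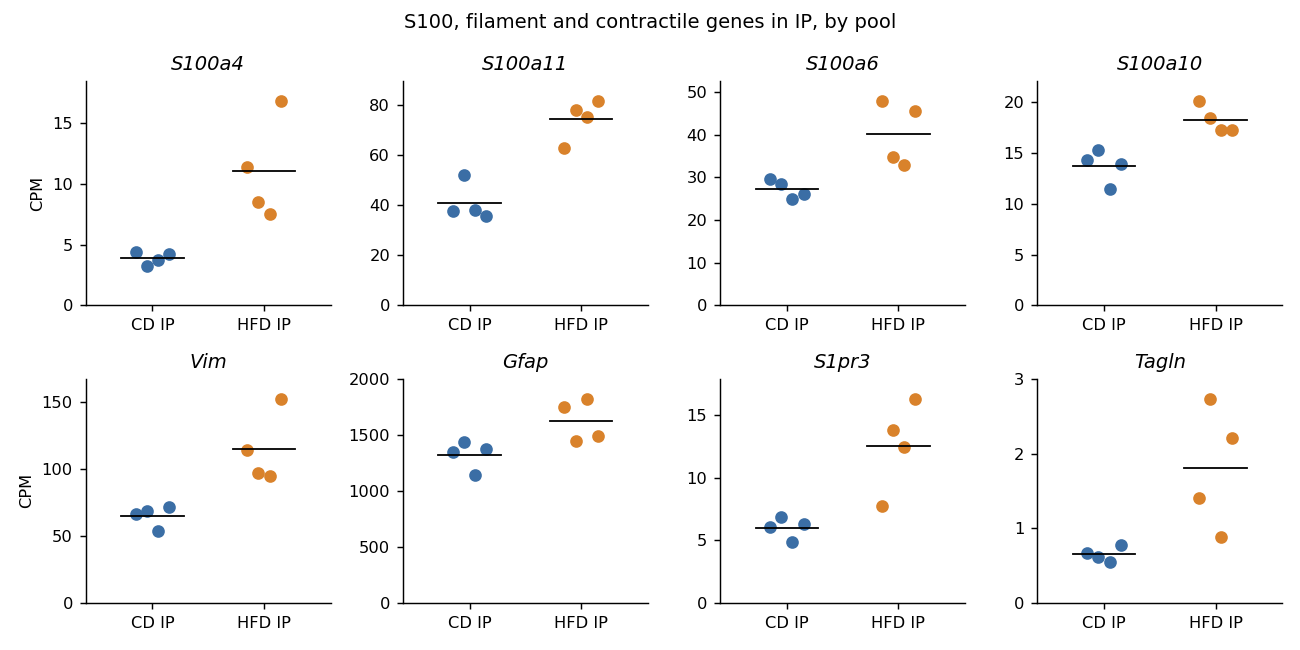
Level in CPM (vertical axes, linear, from 0) of 4 S100 genes, Vim, Gfap, S1pr3 and Tagln in the IP pools, 1 point a pool and a bar at the mean of 4 pools (CD blue, HFD orange). S100a4 goes from 3.24 to 4.42 CPM on CD to 7.49 to 16.8 CPM on HFD.

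Genes of the cytosolic ribosome were shifted upwards together by a small amount. All 82 tested members of 85 were positive, with log2 fold changes up to 0.39 (Rpl31) and a median of 0.16, and 41 had an unadjusted p under 0.05 upwards and none downwards. In 15 of the 82 the HFD pools were all above, and none passed the adjusted test. Rps29 stood at 207, 217, 227 and 193 CPM on CD and 261, 285, 237 and 252 CPM on HFD (0.29 ± 0.07, adjusted p = 0.112), Rpl31 at 400, 478, 464 and 340 CPM and 538, 583, 587 and 493 CPM (0.39 ± 0.10), and Rpl27a at 85.1, 80.5, 78.3 and 72.8 CPM and 94.5, 103, 85.1 and 92.3 CPM (0.24 ± 0.07). Their mean log2 CPM was 6.89, 6.91, 6.96 and 6.72 with CD and 7.07, 7.12, 6.93 and 7.02 with HFD, with HFD pool 3 below CD pool 3 and CD pool 4 the lowest. In the lysate they did not share the shift, since 21 of 82 were positive there, with a median of -0.05. The median difference between the fractions was 0.19, and no member passed the test of that difference.

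The shift of the ribosomal protein genes is to be read beside transcript length, as these transcripts are short (median 1076 bases). Across all 12114 protein-coding genes the log2 fold change in IP went down with length (rho = -0.27 across genes, which are not independent replicates) and not in INPUT (0.04). The shortest sixth, of 201 to 1945 bases, had a median of 0.06 with 67.5 percent positive, and the longest sixth, above 5955 bases, had -0.05 with 30.9 percent positive. With GC content the log2 fold change went down in both fractions (rho = -0.20 in IP and -0.21 in INPUT). The offset takes out length and GC together, so its effect cannot be assigned to length alone. With length and GC content as an offset in the fit the median of the ribosomal protein genes was 0.09 and 73 of 82 were positive. Genes of oxidative phosphorylation encoded in the nucleus, with a median length of 1231 bases, had a median of 0.10 with 34 of 41 positive without the offset and of -0.01 with 18 of 41 positive with it. Among them Atp5j and Cox8a, subunits of ATP synthase and cytochrome oxidase, stood at 299 ± 29.1 and 350 ± 12.7 CPM and at 272 ± 14.3 and 314 ± 19.5 CPM (SD, n = 4 pools each).

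**Figure D4:**
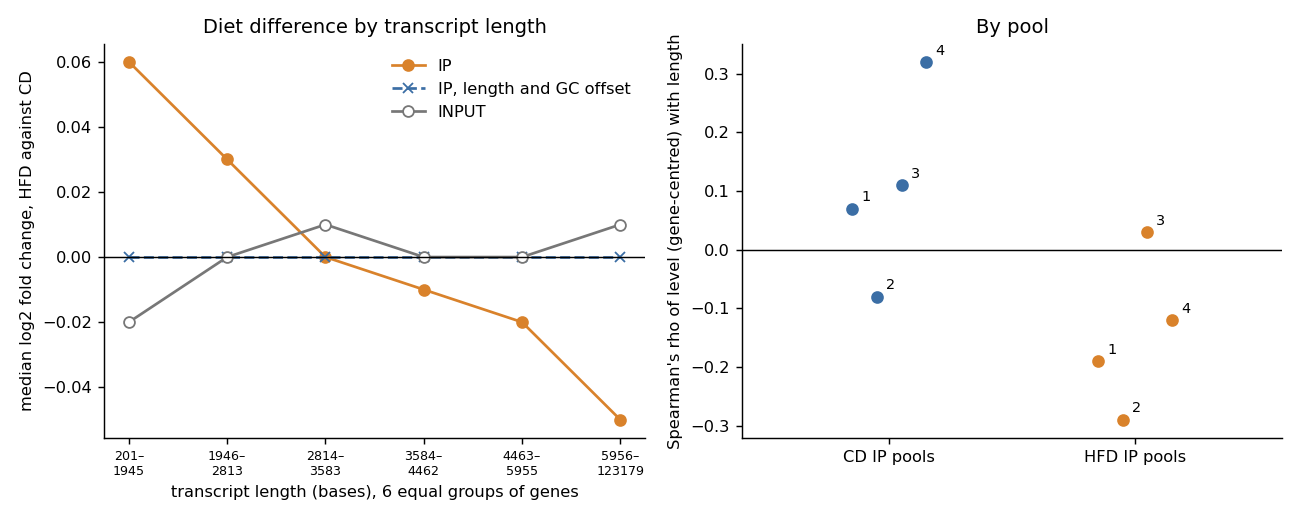
Left, median log2 fold change of HFD against CD (vertical axis) in 6 equal groups of protein-coding genes by transcript length (horizontal axis, bases), in IP (orange), in IP with length and GC as an offset (blue) and in INPUT (grey). Right, Spearman's rho between gene-centred level and transcript length in each IP pool, numbered by pool. The IP medians go from 0.06 to -0.05, and CD pool 4 (0.32) and HFD pool 2 (-0.29) are the extremes.

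Transcripts of ribosomal proteins start with a run of pyrimidines at the cap, the element through which their translation is controlled together. A run of at least 6 C or T, on the coding strand and touching the 3 bases on either side of the annotated start, was found in 29 of the 64 ribosomal protein genes that had a window (45.3 percent), against 19.3 percent of 27025 genes. The 30 bases around the start of the 3 such genes of smallest p that are named here are shown, in RefSeq sequence of GRCm38.p6 with the run in capitals.
Rpl31, chr1:39367836-39367865, plus strand: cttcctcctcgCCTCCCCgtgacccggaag
Rpl27a, chr7:109519180-109519209, plus strand: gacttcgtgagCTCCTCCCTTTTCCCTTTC
Rpl35, chr2:39005117-39005146, minus strand: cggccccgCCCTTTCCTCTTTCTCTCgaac
Rpl35 had a log2 fold change of 0.24, as Rpl27a did.

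Genes that glucocorticoids induce leaned downwards. Glucocorticoids act through a nuclear receptor on targets that store fat, spare glucose and dampen inflammation. Of 24 tested, 19 were negative with a median of -0.16, 12 had an unadjusted p under 0.05 downwards and 1 upwards, and 6 had all HFD pools below while 1 had all above. Plin4, a coat protein of lipid droplets, stood at 1.43, 2.85, 1.5 and 1.83 CPM on CD and 0.434, 0.875, 0.944 and 0.843 CPM on HFD (-1.30 ± 0.29, adjusted p = 0.0805), and in INPUT at 2.39 ± 0.545 and 0.843 ± 0.352 CPM (-1.52, adjusted p = 0.0615, edgeR, n = 4 pools each). Sult1a1, a sulfotransferase, stood at 14.1, 21.7, 18.1 and 13.7 CPM and 8.49, 11.4, 7.99 and 11.2 CPM (-0.80 ± 0.16, adjusted p = 0.0872), and was the 1 gene outside the 14 that passed with the length and GC offset (adjusted p = 0.0346). Zbtb16, a transcription factor, stood at 16, 14.6, 21.1 and 22.5 CPM and 13.7, 12.9, 9.55 and 12.6 CPM (-0.61 ± 0.15, adjusted p = 0.129). The list's mean log2 CPM was 5.08 in CD pool 1 and 5.37 to 5.48 in the other CD pools, against 5.04 to 5.17 with HFD, so CD pool 1 lay among the HFD pools. The median was -0.18 with the offset, -0.31 with the Y-linked covariate and -0.14 in INPUT, where 19 of 24 were negative too.

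Clock genes, which run a transcription cycle of about a day, showed a narrower but more even shift. Of 19 genes 16 were negative with a median of -0.14, and 9 had an unadjusted p under 0.05 downwards and 1 upwards. The gene upwards was Arntl, which encodes BMAL1 (0.31 ± 0.14, adjusted p = 0.379). Clock (0.12 ± 0.07) and Nfil3 (0.24 ± 0.21) were positive too. The list's mean log2 CPM was 6.31, 6.30, 6.35 and 6.35 with CD and 6.23, 6.20, 6.16 and 6.20 with HFD, without overlap. Nr1d1, the repressor Rev-erb alpha, stood at 385, 405, 351 and 414 CPM on CD and 308, 347, 308 and 301 CPM on HFD (-0.30 ± 0.07, adjusted p = 0.107), with HFD pool 2 reaching almost to CD pool 3. Ciart, a repressor of the cycle, stood at 8.41, 9.05, 10.2 and 11.6 CPM and 7.78, 7.51, 4.72 and 5.63 CPM (-0.62 ± 0.15, adjusted p = 0.118), and Tef, an output factor, at 111, 101, 120 and 119 CPM and 102, 93.2, 85.6 and 95.5 CPM (-0.26 ± 0.07). Sampling times are not in the labels used here, so the hour of death and the diet cannot be told apart for these genes. The median was -0.14 with the length and GC offset and -0.10 in INPUT.

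The clock proteins CLOCK and BMAL1 bind an E-box, and the letters CACGTG were found, searching both strands from 250 bases before to 50 after the start, in 5 of 17 clock genes with a window (29.4 percent) and in 8.09 percent of 27025 genes. The letters are shown in capitals, read on the strand of the gene, for the 3 of smallest p whose match lies wholly before the start.
Ciart, chr3:95882324-95882359, minus strand: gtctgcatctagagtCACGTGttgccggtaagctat
Tef, chr15:81802531-81802566, plus strand: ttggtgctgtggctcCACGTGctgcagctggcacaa
Per1, chr11:69098768-69098803, plus strand: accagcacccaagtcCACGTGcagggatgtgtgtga
They lie 116, 127 and 166 bases before the start. The glucocorticoid response element, searched as its full palindrome, was found in 1 of 21 glucocorticoid-induced genes with a window, which says only that these letters are rare so near to the start (0.01 percent of all genes).

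Interferon-induced genes leaned upwards in both fractions. Of 30 tested 28 were positive with a median of 0.15 (0.13 with the length and GC offset), and 26 of 30 were positive in INPUT with a median of 0.10. In IP 9 had an unadjusted p under 0.05 upwards and 1 downwards, none passed, and 1 had all HFD pools above. That gene was Ifitm2, a membrane protein that blocks virus entry, at 26.3, 28.7, 21.5 and 23 CPM on CD and 28.9, 32, 38.7 and 32.9 CPM on HFD (0.41 ± 0.10, adjusted p = 0.118). In INPUT it stood at 5.70 ± 0.272 and 8.65 ± 0.563 CPM (0.60, adjusted p = 0.0235, edgeR, n = 4 pools each). Gbp3, a guanylate-binding protein, stood at 190, 200, 157 and 165 CPM and 210, 199, 199 and 229 CPM (0.23 ± 0.08), and Usp18, which removes the ubiquitin-like ISG15, at 22.3, 27.9, 20.3 and 22.5 CPM and 32.6, 25.9, 32.5 and 46.9 CPM (0.57 ± 0.18), both with overlap. The list's mean log2 CPM overlapped as well, at 6.53, 6.67, 6.28 and 6.42 with CD and 6.59, 6.51, 6.62 and 6.88 with HFD, HFD pool 4 being the highest.

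Interferon acts on many of its targets through the interferon-stimulated response element, and the core of this element, a pair of GAAA words set apart by any 2 bases, was found on either strand in 14 of 24 interferon-induced genes with a window (58.3 percent), against 3.99 percent of all 27025. The core is shown in capitals for the 3 of smallest p whose match lies wholly before the start.
Ifitm2, chr7:140955983-140956022, minus strand: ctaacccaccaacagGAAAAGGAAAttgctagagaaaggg
Gbp3, chr3:142559984-142560023, plus strand: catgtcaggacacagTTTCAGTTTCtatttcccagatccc
Bst2, chr8:71537578-71537617, minus strand: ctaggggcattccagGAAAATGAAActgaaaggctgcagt
In Gbp3 the core is on the opposite strand to the gene. The elements lie 46, 45 and 130 bases before the start.

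Genes that make lipids leaned downwards in IP. All 24 genes of cholesterol synthesis were negative, from -0.26 to -0.01 with a median of -0.13, but 1 of the 24 had an unadjusted p under 0.05, and in INPUT 12 of 24 were negative. With the Y-linked covariate the median was -0.49. Lss, which closes the sterol rings, was that gene, at 60, 62.5, 64.2 and 81 CPM on CD and 53.2, 58, 56.9 and 55.1 CPM on HFD (-0.26 ± 0.08, adjusted p = 0.226). The even sign did not come with parted pools: the list's mean log2 CPM was 5.25, 5.26, 4.97 and 5.47 with CD and 5.15, 5.41, 4.92 and 4.94 with HFD. In fatty acid synthesis and desaturation 13 of 17 were negative with a median of -0.16 and 5 had an unadjusted p under 0.05 downwards. In INPUT 13 of 17 were negative too (median -0.09), and with the Y-linked covariate in IP the median was -0.27. Fasn, the fatty acid synthase, stood at 303, 285, 309 and 385 CPM and 253, 260, 244 and 280 CPM (-0.31 ± 0.08, adjusted p = 0.158), and with the length and GC offset at -0.15 (its transcript has 10050 bases). Acacb, the acetyl-CoA carboxylase at mitochondria, stood at 5.82, 5.68, 6.21 and 5.22 CPM and 4.25, 3.97, 3.58 and 4.86 CPM (-0.46 ± 0.13), and Srebf1, the transcription factor SREBP-1, at 74 ± 9.9 and 61 ± 6.16 CPM (SD, n = 4 pools each).

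Genes of lipoproteins, their receptors and lipid efflux had a median of -0.13 with 11 of 15 negative. Clu, clusterin, stood at 1504, 1746, 1629 and 1891 CPM on CD and 1407, 1563, 1330 and 1284 CPM on HFD (-0.28 ± 0.09), and Lrp1, a lipoprotein receptor, at 301, 324, 348 and 466 CPM and 241, 315, 238 and 254 CPM (-0.46 ± 0.14), both overlapping and neither passing. Genes of fatty acid uptake and oxidation had a median of -0.03, close to the 0.00 of all genes. By sign they leaned downwards, with 21 of 29 negative (27.6 percent positive, against 50.3 percent of all genes).

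The genes by which astrocytes clear transmitter, potassium and water had a median of -0.17 with 18 of 20 negative (-0.15 with the offset, -0.33 with the Y-linked covariate and -0.13 in INPUT). General astrocyte markers, with which this list shares members such as Slc1a2 and Gja1, leaned the same way. Of these 15 markers 12 were negative in IP (median -0.08) and 12 in INPUT (median -0.12). Slc1a2, the glutamate transporter GLT-1, stood at 15342, 17267, 17732 and 17837 CPM on CD and 13827, 15178, 13206 and 13005 CPM on HFD (-0.30 ± 0.09, adjusted p = 0.199) and was the only member of the 20 with parted groups. Gja1, connexin 43, stood at 362 to 366 CPM in the CD pools and 268 to 369 CPM in the HFD pools. In the breakdown of amino acids, the list of Prodh, 21 of 27 were negative with a median of -0.09 (0.00 with the Y-linked covariate), and in cytochrome P450, glutathione and detoxification, the list of Cyp2d22, 17 of 28 with a median of -0.07. Each of these 2 lists had 1 gene past the test, and Gcsh, of the glycine cleavage system, had all HFD pools above (320, 289, 327 and 261 CPM, and 346, 342, 330 and 329 CPM).

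**Figure D5:**
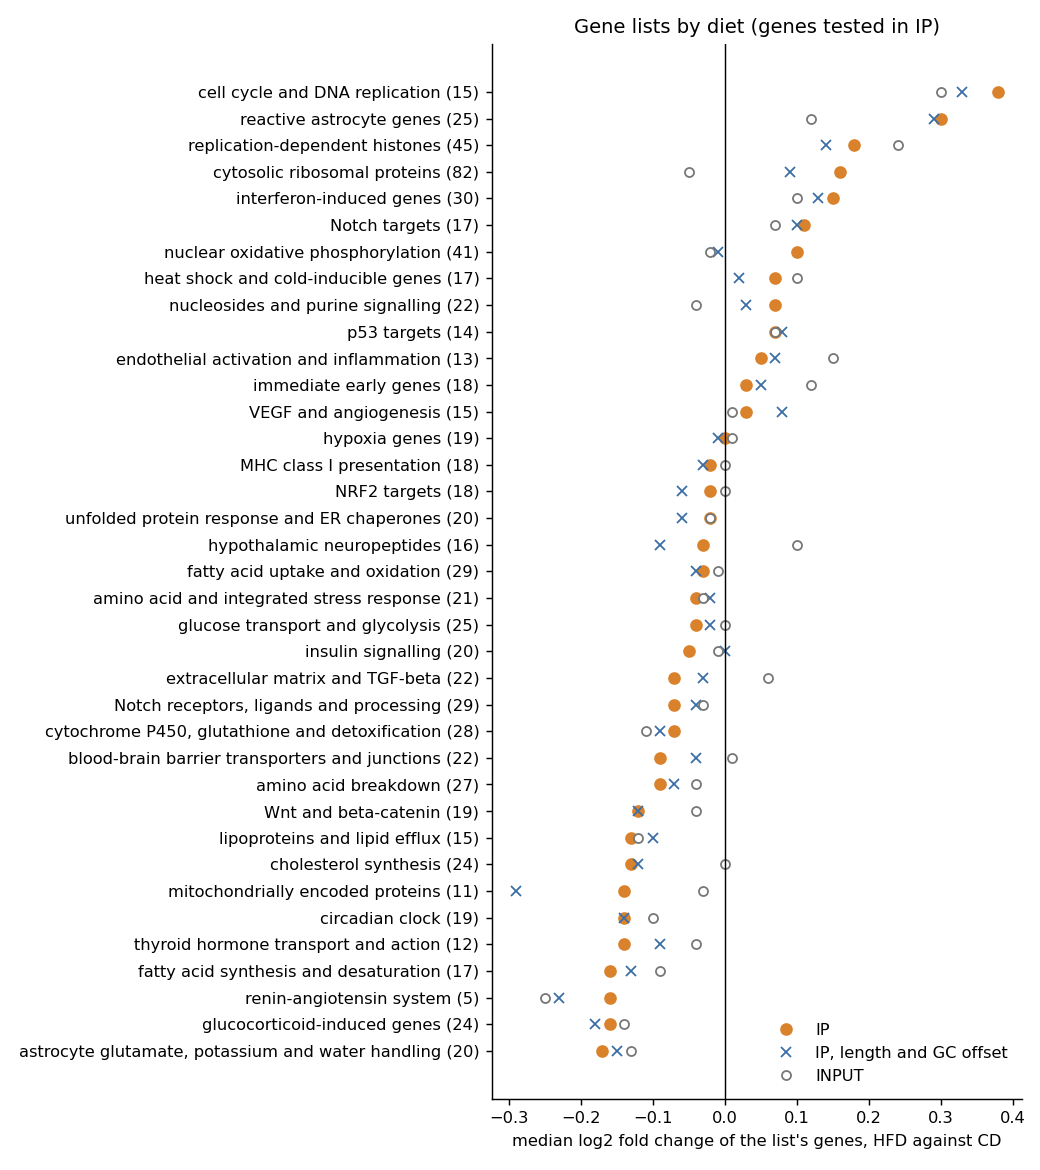
Median log2 fold change of HFD against CD (horizontal axis) for the 37 pathway lists, with the number of genes tested in IP in brackets, in IP (orange), in IP with the length and GC offset (blue crosses) and in INPUT (open grey). The lists run from -0.17 (astrocyte glutamate, potassium and water handling) to 0.38 (cell cycle), and nuclear oxidative phosphorylation goes from 0.10 to -0.01 with the offset.

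The study's question on glucose, insulin and Notch at the barrier was read from lists of these pathways, of which no gene passed. For Slc2a1, the glucose transporter GLUT1, the pools read 135, 161, 135 and 159 CPM on CD and 120, 139, 105 and 109 CPM on HFD, so that HFD pool 2 was above CD pools 1 and 3, and the 95 percent interval of the log2 fold change was -0.51 to -0.14. Its adjusted p in IP was 0.161 with edgeR, and with the length and GC offset the log2 fold change was -0.29 (adjusted p = 0.249). In the lysate its log2 fold change was 0.01. With the Y-linked level as a covariate in IP it was -0.62 (adjusted p = 0.0371), in the fit that separates diet from Y-linked level only poorly. The list of glucose transport and glycolysis had a median of -0.04 with 16 of 25 negative. It held values on both sides, with Slc2a4, the insulin-responsive transporter GLUT4, at 2.99 ± 0.8 and 1.82 ± 0.196 CPM and Pfkfb3, which speeds glycolysis, at 64.8 ± 3.19 and 76.8 ± 6.31 CPM with all HFD pools above (SD, n = 4 pools each).

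Insr, the insulin receptor, read 50.7, 55.2, 56.9 and 56.4 CPM on CD and 46.4, 48.2, 43.5 and 44 CPM on HFD, parted groups with an interval of -0.41 to -0.12 (edgeR, adjusted p = 0.126). Its transcript is long, 9355 bases, and with the length and GC offset the log2 fold change was -0.20 (adjusted p = 0.324). The related receptor Igf1r and the adaptor Irs2 stood at 25 ± 2.8 and 19.8 ± 2.24 CPM and at 26.7 ± 4.18 and 21.8 ± 1.07 CPM (SD, n = 4 pools each), with overlap. Insulin signalling as a list had 15 of 20 negative with a median of -0.05, and 10 of 20 with a median of 0.00 with the offset (-0.02 with the Y-linked covariate).

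Notch1, a receptor through which neighbouring cells set each other's fate, read 56.4, 58.8, 69.9 and 79.1 CPM on CD and 50, 63.5, 48.9 and 62.6 CPM on HFD, with an interval of -0.50 to 0.03. Its target Hes1 had an interval of -0.23 to 0.19, with 11.5 to 15 CPM in all 8 pools. Receptors, ligands and processing enzymes had 23 of 29 negative with a median of -0.07 (18 of 29 and -0.04 with the offset, -0.16 with the Y-linked covariate), while 13 of 17 Notch targets were positive with a median of 0.11. Among these targets the members of the Hes and Hey families lay from -0.14 to 0.11, none with parted groups. Ccnd1, cyclin D1, stood at 43.1, 37.7, 51.7 and 36.7 CPM and 71.2, 54.2, 64.4 and 85.1 CPM (0.70 ± 0.15, adjusted p = 0.129), and Id3, which blocks differentiation factors, at 120, 130, 131 and 120 CPM and 154, 136, 141 and 155 CPM. These 2 had all HFD pools above. Dtx4, an ubiquitin ligase of the pathway, stood at 82.8 ± 12.2 and 105 ± 4.34 CPM (SD, n = 4 pools each).

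Transporters and junctions of the blood-brain barrier had 16 of 22 negative with a median of -0.09 (-0.04 with the offset, -0.40 with the Y-linked covariate). Tfrc, the transferrin receptor, stood at 72.6, 68.8, 66.6 and 78 CPM on CD and 58.9, 64.2, 48.9 and 56.8 CPM on HFD (-0.32 ± 0.08, adjusted p = 0.121), parted like Slc6a6 above. Abcb1a, the efflux pump P-glycoprotein, stood at 7.92 ± 1.33 and 5.82 ± 1.13 CPM (SD, n = 4 pools each) with overlap. All 19 tested genes of Wnt and beta-catenin signalling, which maintains the barrier, were negative with a median of -0.12 (-0.41 with the Y-linked covariate), and their mean log2 CPM was 4.41 to 4.43 in HFD pools 1, 3 and 4 but 4.76 in HFD pool 2, above every CD pool (4.49 to 4.75). The pan-endothelial markers had 10 of 19 negative with a median of -0.01.

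None of the 15 tested genes of cell division passed, and 1 had all HFD pools above. Of the 15, 13 were positive with a median of 0.38 (0.83 with the Y-linked covariate), and all 15 were positive in INPUT with a median of 0.30. Ube2c, a ubiquitin-conjugating enzyme of mitosis, read 0.399, 0.442, 0.914 and 0.44 CPM on CD and 2.91, 1.75, 0.999 and 4.44 CPM on HFD (2.23 ± 0.46, adjusted p = 0.104). Mki67, the antigen Ki-67, read 0.665, 0.885, 0.987 and 1.42 CPM and 3.66, 1.53, 1.36 and 3.96 CPM, and Cenpf, a kinetochore protein, 0.53 ± 0.185 and 1.29 ± 0.757 CPM (SD, n = 4 pools each). HFD pools 1 and 4 were the high ones for all 3 genes. Replication-dependent histones, read with the caution on copies given above, had 36 of 45 positive with a median of 0.18, and 0.24 in INPUT.

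Markers of the other cells that the precipitate could hold were set against these values. Oligodendrocyte markers were 11 of 15 negative with a median of -0.18 (-0.36 with the Y-linked covariate and -0.01 in INPUT): Mobp, a myelin protein, read 35.1, 37.2, 36.3 and 35.3 CPM on CD and 28.3, 30, 22.4 and 30.7 CPM on HFD (-0.37 ± 0.09, adjusted p = 0.104), and Mbp 107 ± 10.1 and 83.2 ± 11.9 CPM (SD, n = 4 pools each), while the lineage factor Olig2 stood at 27.5 ± 2.62 and 36.8 ± 6.04 CPM. The summed level of the list, 1060 to 1114 CPM on CD and 994 to 1180 CPM on HFD, overlapped (exact p = 0.8). Microglial and macrophage markers were 8 of 13 negative with a median of -0.13, among them Tyrobp at 4.49 ± 0.503 and 3.28 ± 0.662 CPM and Csf1r at 5.51 ± 0.967 and 4.17 ± 0.384 CPM, and their sum overlapped, at 39.7 to 52.7 and 37.6 to 45.8 CPM (exact p = 0.4). Of 16 hypothalamic neuropeptides 8 were positive and 8 negative, with orexin (Hcrt) at 2.72 ± 0.636 and 1.6 ± 0.498 CPM and neurotensin (Nts) at 1.36 ± 0.237 and 2.27 ± 0.904 CPM, and none passed. Tac2, neurokinin B, had all HFD pools above (2.82 ± 0.246 and 3.5 ± 0.315 CPM, SD, n = 4 pools each). HFD pool 4 stood apart for Crym, a tanycyte marker, with 29 CPM against 2.26 to 7.97 CPM in the other 7 pools. The neuronal markers summed to 4744 to 5165 CPM on CD and 4220 to 5824 CPM on HFD (exact p = 0.886), and T cell markers to 25.7 to 33.6 and 32.7 to 39.6 CPM (exact p = 0.0857). Fibroblast and meningeal markers summed to 22.3 to 141 and 20.3 to 44.2 CPM (exact p = 0.543, median log2 fold change -0.48). Their mean log2 CPM was 3.01 in CD pool 4 and 1.19 to 1.55 in the other CD pools. Anterior pituitary markers summed to 4.6 to 79 and 2.53 to 16.3 CPM (exact p = 0.714, median -0.32), and in INPUT to 37.7 to 963 and 18.1 to 219 CPM.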

How the data were processed

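The deposited table gave estimated counts per Ensembl gene, and 17.3 percent of its values were not whole numbers. Build GRCm38 is named in the submitters' processing notes, while the sources used here name no aligner, counter, strand setting or annotation release. Counts were rounded, filtered with filterByExpr, scaled with TMM factors and fitted with the robust quasi-likelihood model of edgeR 4.0.16 in R 4.3.3 on the 8 IP libraries, with Benjamini-Hochberg adjustment over 15858 genes and a 2-sided test at an adjusted p of 0.05. INPUT and the interaction of diet and fraction were fitted in the same way, and the procedure was tested on simulated counts. DESeq2 1.42.0, limma 3.58.1 (voom), other scalings and filters, and leaving out each library were tried as alternatives. Length, GC content, symbols and coordinates came from GENCODE M21, and promoter windows from RefSeq. Length and GC were known for 99.5 percent of the tested genes.

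Named were all genes that passed, the 12 next per direction by p, up to 3 genes of smallest p per list among 52 gene lists, and 5 fixed genes; not every gene so chosen is described. Members and lists were chosen with earlier results of these data known. Pathway lists were described by counts and medians without a test, and summed levels of cell type markers were compared with a 2-sided exact permutation test. The replicate numbers were not taken to pair the pools, since the labels name no shared batch. Deviations of pools with the same number correlated by 0.226, 0.072, 0.127 and 0.016. The highest correlations with a pool of another number were 0.145, 0.129, 0.059 and 0.056.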

Additional observations from a re-analysis of the deposited data

Results flagged for a closer look

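In 228 groups of 4 pools (the genes and list means named in the text, by diet) a single pool lay far from its 3 neighbours in 10, where chance gives about 1 in 20 groups. For genes called in IP these were S100a11 in CD pool 2 (52 CPM against 35.7 to 37.9), Upp1 in HFD pool 4 (15.4 CPM against 11.9 to 12.3) and AW112010 in HFD pool 1 (16.3 CPM against 17.4 to 17.5). For other genes they were Dap in CD pool 4 (16.1 CPM), Numa1 in HFD pool 4 (57.7 CPM), Nr1d1 in HFD pool 2 (347 CPM), Ube2c in CD pool 3 (0.914 CPM) and Mbp in HFD pool 3 (65.6 CPM). The mean log2 CPM of the Wnt and beta-catenin list stood apart in CD pool 3 (4.49) and in HFD pool 2 (4.76).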

How the results depend on the processing

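The count of genes in IP (14) moved with the tool and the samples: 200 with DESeq2, 398 without the filter on low counts, 121 with all 16 libraries fitted together, 52 with the replicate block and 29 with the Y-linked level as a covariate, and from 5 to 50 with 1 library left out. Limma-voom (14), RLE size factors (17), structural and mitochondrial RNA left out (15) and the length and GC offset (12) stayed within 1.5 times. The length and GC offset, the Y-linked covariate and leaving out libraries of INPUT and of the interaction were chosen after the data were seen. In INPUT (6) the count was 52 with DESeq2, 116 without the filter, 43 with the replicate block and 9 with the length and GC offset, and from 2 to 17 with 1 library left out. The interaction (0) gave 1 with the replicate block, 1 without the filter and 0 to 1 with 1 library left out. Replicate numbers do not pair the pools by the labels, so the block is given here alone.

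Of the values of named genes that had not passed, 3 took the other sign, all for Hes1 (-0.02): 0.03 without CD pool 1, 0.02 without CD pool 2 and 0.01 without HFD pool 2, its values ranging from -0.09 to 0.03 with 1 library left out. The median of nuclear oxidative phosphorylation (0.10) was -0.01 with the length and GC offset, and that of the sex-linked genes (-0.39) was 0.05 with the Y-linked covariate, which holds 4 of them. A further 13 list medians moved by more than the pool spread, 11 of them with the Y-linked covariate, among them cholesterol synthesis (-0.13) at -0.49, Wnt (-0.12) at -0.41 and cell cycle (0.38) at 0.83. Clock genes (-0.14) stood at -0.17 without HFD pool 2. Of the values of named genes that had not passed, 201 passed under an alternative and 1111 did not. Of the values of the 14 called genes under these alternatives, 158 passed and 77 did not, and the cause was not tested. The median standard error of 0.08 on the log2 scale, over 4 pools a diet, limits the size of difference that can be called.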
